A study of Homo sapiens with 24 samples.

Results

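Actin is the protein of the thin filaments that shape and move a cell, and 10 genes of the actin cytoskeleton were followed here in SKBR3 cells, an established HER2-positive human breast cancer cell line. The genes were ACTB, ACTG1, ACTA1, and ACTA2, which encode actins, and TPM1, TPM4, MYL9, FLNA, VCL, and TAGLN2, which encode actin-binding or contractile proteins. They were chosen by gene symbol, and all 10 were present among the 14493 genes of the count table, which lists only genes with at least 1 read in every library. The list was proposed with earlier results of these libraries known, so the p-values below are no independent evidence for the list. Therapy-induced senescence (TIS), a lasting growth arrest after drug exposure, was the setting of the study, which asked whether blocking fatty acid synthesis produces a state like that of other TIS inducers.

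The 24 libraries of mRNA-seq formed 8 groups of 3 replicates, all from the same line. ND-646, an inhibitor of acetyl-CoA carboxylase (ACC), and TVB-3166, an inhibitor of fatty acid synthase (FASN), were each given at 250 nmol/L. The other TIS inducers were bleomycin at 10 μmol/L and doxorubicin at 10 nmol/L, which damage DNA, alisertib, an Aurora A kinase inhibitor, at 500 nmol/L, and palbociclib, a CDK4/6 inhibitor, at 1 μmol/L. All 6 drugs were renewed on day 3 and cells were collected on day 7, and untreated cells were collected on day 0 and on day 7. The labels name a refeed on day 3 for every treated library and none for the untreated day-7 libraries. Whether those cells were refed is therefore not known, and drug and refeed cannot be told apart in the comparisons with day 7. Nothing in the labels says that the replicates were separate cultures, so the p-values measure only the spread between these samples.

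Non-muscle cells build their filaments mainly from beta-actin (ACTB) and gamma-actin (ACTG1), whereas the alpha-actins ACTA1 and ACTA2 are best known from skeletal and vascular smooth muscle. Tropomyosins lie along the filament, the regulatory light chain MYL9 belongs to the myosin II motor that pulls on it, filamin A crosslinks filaments, and vinculin ties them to adhesion sites. Many of these genes are textbook targets of serum response factor (SRF), which binds the CArG box and is switched on by its coactivators MRTFA and MRTFB when the pool of free actin monomer falls. Fibroblasts that contract or become senescent are known for thick actin bundles and for ACTA2.

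The promoter sequences of the members are shown because the CArG box is the motif by which this gene class is usually defined. RefSeq promoter windows of 300 bases (GRCh38.p14, from 250 bases before to 50 after a start site) were present for 8 of the 10 members, and ACTB and MYL9 were the others. A CArG box, CC followed by 6 bases of A or T and then GG, stood in windows of 4 members, and the same search found it in 1.29% of all 35116 windows and for 1.6% of 27305 genes. The pattern is its own reverse complement, so 1 search covers both strands. Its 10 bases are in capitals below, and each stretch was placed on GRCh37, the build of the counts, by exact match, on the strand of the gene.
ACTA1 (chr1:229569919-229569948, minus strand, box from position -97): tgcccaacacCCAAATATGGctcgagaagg
ACTG1 (chr17:79479900-79479929, minus strand, box from position -94): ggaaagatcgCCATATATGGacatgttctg
TPM4 (chr19:16178165-16178194, plus strand, box from position -173): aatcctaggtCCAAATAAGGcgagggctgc
FLNA (chrX:153603077-153603106, minus strand, box from position -94): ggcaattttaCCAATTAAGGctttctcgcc
Of these 4 genes, ACTA1 was higher in 5 of 6 treated groups than at day 0, ACTG1 was lower in 4, TPM4 was lower in 1, and FLNA was higher in 2 and lower in 2, all relative to the other genes of the library, since some of these falls change sign when scaled to reference genes. Of the members with a window and no match, ACTA2 was higher in 4 of 6 treated groups than at day 0, TAGLN2 was lower in 5, TPM1 was higher in 3, and VCL was lower in 1, on the same terms. Only the exact pattern was searched, so a box with 1 other base, or outside the window, would be missed. A match describes the letters only, and binding was not measured.

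Total counts per library ranged from 29405121 to 44316330. The chi-square between replicate 1 and the other replicates, divided by the number of genes, was 146.5 to 159.1 in the ND-646 group and 170.6 to 171.9 in the day-0 group, whereas replicates 2 and 3 differed by 13.4 and 18.3. Replicate 1 of both groups therefore stood apart, and calls of members that changed without either library are given with and without it, with TMM scaling only. The epithelial markers KRT8, KRT18, KRT19, EPCAM, and ERBB2 were all present. Their summed level was 16730 to 19870 CPM at day 0, where CPM is the read count scaled to the TMM-adjusted size of the library, and 9545 to 13160 CPM with bleomycin, the lowest group. Relative to all genes with TMM, 2 of the 5 were lower than at day 0 with ND-646 and 3 of the 5 with each other drug. Of all genes, 18.8% were lower with ND-646 and 19.6% to 27.7% with the others. Against day 7 the markers lower were 1 with ND-646, 2 with TVB-3166, 3 with bleomycin, 1 with doxorubicin, 2 with alisertib, and 0 with palbociclib. With TVB-3166, 1 was higher. Shares of all genes lower were 9.49% to 26.1% there, and the part of these markers in the results was not tested. Markers of muscle were mostly missing: of 6 smooth muscle markers only SMTN was in the table, and of 6 skeletal and heart muscle markers none was.

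Per kilobase of the MANE Select transcript, the untreated day-0 cells held 2560 ± 350 CPM of ACTB, 401 ± 43.7 of ACTG1, and 466 ± 64.7 of TAGLN2 (SD, n = 3). VCL (79.3 ± 5.67), TPM4 (103 ± 13.5), TPM1 (60.2 ± 11.7), and FLNA (50.4 ± 4.84) followed on the same scale. ACTA1 (0.706 ± 0.542), ACTA2 (0.594 ± 0.352), and MYL9 (0.690 ± 0.340) were the lowest, with 10 to 86 reads per day-0 library. The low members carry more counting error than the others, and they were also the ones whose group means differed most, by 16.1-fold for ACTA1, 13.3-fold for ACTA2, and 7.42-fold for MYL9 between the highest and the lowest group. The smallest span was that of VCL, 1.47-fold.

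In the comparisons of a drug with untreated cells, called changes of ACTA1, ACTA2, and MYL9 were all rises relative to all genes and those of ACTB, TAGLN2, TPM4, and VCL all falls, whereas TPM1, FLNA, and ACTG1 had calls in both directions, and with scaling to reference genes some of the falls turn into rises. All 10 members were tested in all 15 comparisons with edgeR's quasi-likelihood test, and a gene was called at a Benjamini-Hochberg adjusted p under 0.05 over all genes of the comparison. Direction depends on the scaling for the abundant members, because scaling each library to the reference genes PPIA, GAPDH, and GUSB in place of TMM moved the median of all genes by 0.61 to 0.83 on the log2 scale against day 0 and by 0.29 to 0.50 against day 7 in the treated groups. Of 76 calls over members and comparisons, 15 had the opposite sign under that scaling. Each fall described below is therefore a fall relative to the other genes of the same library. Relative to the median of all genes, all 76 kept their sign. Subtracting that median takes the shift out again, so this agreement adds no support. The scaling also sets the split of calls over all genes. With TMM 47.5% to 50.5% of the calls in the 12 comparisons of a drug with untreated cells were higher, and with the reference genes 83.2% to 98.4%. With library totals alone the share was 39% for ND-646, 61% for doxorubicin, 69.6% for alisertib, and 61.9% for palbociclib against day 0, and 29.4%, 38.5%, and 34.4% for ND-646, TVB-3166, and bleomycin against day 7. Between the untreated groups it was 66.2% with TMM, 87.5% with totals, and 99.2% with the reference genes.

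Against day 0, ND-646 cells had 2 of 10 members higher and 0 lower, whereas 19.1% of all genes tested were higher and 18.8% lower. For TVB-3166 the counts were 1 higher and 4 lower, against 27.4% and 27.7% of all genes. ACTA1 was the member called in both, and the 4 lower in TVB-3166 cells were ACTB, ACTG1, TAGLN2, and FLNA. Bleomycin gave 5 higher and 1 lower, against 24.1% and 25.3% of all genes. Doxorubicin gave 5 higher and 3 lower, against 23.7% and 24.8%. The 5 higher members were ACTA1, ACTA2, TPM1, FLNA, and MYL9 with each of these drugs. Alisertib gave 0 higher and 6 lower, against 17.7% and 19.6%. Palbociclib gave 3 higher and 3 lower, against 26% and 27.2%. Untreated cells on day 7 differed from day 0 in 0 of 10 members, 0 of them at a raw p under 0.05, with 0.389% of all genes higher and 0.198% lower. DESeq2 also called 0 members there. The median log2 fold change of the 10 members against day 0 was -0.04 with ND-646, -0.12 with TVB-3166, 0.41 with bleomycin, 0.20 with doxorubicin, -0.46 with alisertib, and 0.10 with palbociclib, against -0.01 to 0.02 for all genes. Scaled to the reference genes, the calls of members against day 0 were 6 higher with ND-646, 7 with TVB-3166, 9 with bleomycin, 7 with doxorubicin, 4 with alisertib, and 7 with palbociclib, with 0 lower in each. Of all genes tested, 6786 of 13604 were then higher with ND-646, 9601 of 13686 with TVB-3166, and 9596 of 13743 with bleomycin. With doxorubicin they were 9831 of 13804, with alisertib 10210 of 13765, and with palbociclib 10224 of 13746. From 171 to 647 genes were lower. The member counts under this scaling are therefore not particular to the list.

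The comparisons with untreated cells of the same day share the treated libraries with those above. ND-646 cells had 3 members higher and 0 lower, against 17.2% and 17.1% of all genes. TVB-3166 cells had 3 higher and 4 lower, against 25.4% and 26.1%. Bleomycin cells had 5 higher and 1 lower, against 22.4% and 23.2%. MYL9 was called here in both lipogenesis inhibitor groups. Doxorubicin cells had 5 higher and 2 lower, against 21.9% and 21.5%. Alisertib cells had 2 higher and 6 lower, against 9.55% and 9.49%. A fit that blocks on the replicate number, which was taken to pair the libraries here, called 4141 genes in place of 2627. Palbociclib cells had 5 higher and 3 lower, against 22% and 22.9%. Replicate 1 of ND-646 lowered the calls of that group, of members and of all genes alike. Without it, 6 members were called against day 0 and 6 against day 7. Of all genes, 7573 and 7618 were then called, in place of 5157 of 13604 and 4692 of 13704 with all libraries. The members gained were ACTB, TAGLN2, and FLNA in both comparisons and ACTG1 against day 0, all lower relative to all genes. Scaled to the reference genes, with all libraries, 4 were higher with ND-646 against day 7, 6 with TVB-3166, 8 with bleomycin, 5 with doxorubicin, 2 with alisertib, and 6 with palbociclib. Lower members were 2 with alisertib (ACTG1 and TPM4) and 0 with the others. Of all genes tested, 3528 of 13704 were higher under this scaling with ND-646, 7039 of 13748 with TVB-3166, and 6562 of 13802 with bleomycin. With doxorubicin they were 6149 of 13850, with alisertib 4930 of 13795, and with palbociclib 7715 of 13788. Lower were 206 genes with alisertib and up to 1065, with TVB-3166.

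**Figure D1:**
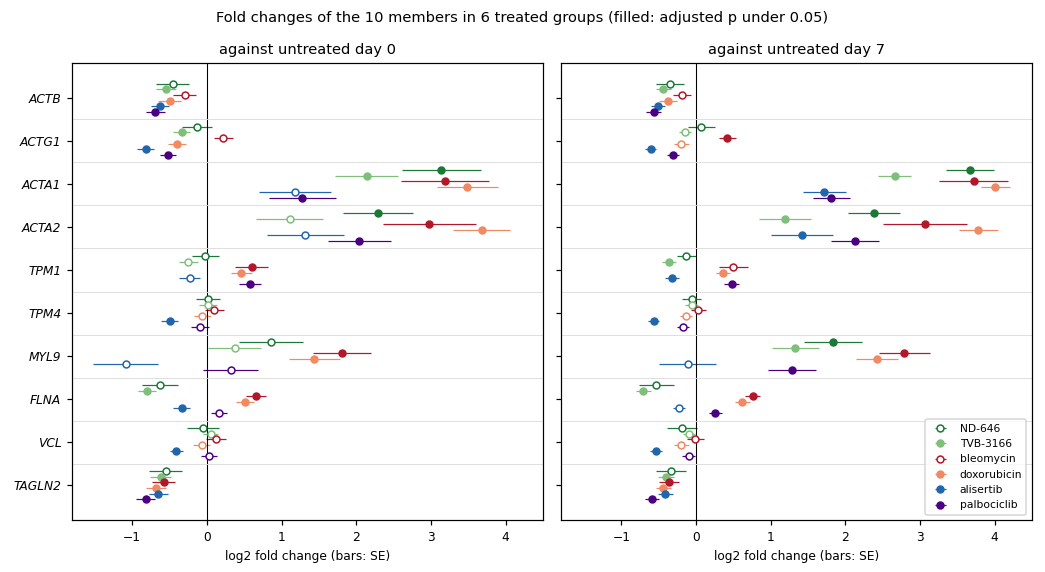
Log2 fold change of each member in the 6 treated groups against untreated day 0 (left) and untreated day 7 (right), with TMM scaling, as fitted by edgeR on 3 libraries a group; bars are the standard error, filled points passed an adjusted p of 0.05. ACTA1 and ACTA2 lie to the right in every group, ACTB and TAGLN2 lie to the left, and FLNA lies on both sides, with bleomycin at 0.66 and TVB-3166 at -0.80 against day 0; scaled to the reference genes, the called falls against day 0 (ACTB, ACTG1, TAGLN2, TPM4, VCL, and FLNA) come to between -0.20 and 0.40 and those against day 7 to between -0.33 and 0.13.

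ACTA1, the skeletal muscle alpha-actin, was higher with 5 drugs against day 0 and with all 6 against day 7. It is a gene of chromosome 1 (GRCh37 chr1:229566112-229569851, minus strand, GeneID 58). The day-0 libraries held 0.381, 1.95, and 0.828 CPM and the day-7 untreated libraries 0.794, 0.666, and 0.683 CPM. ND-646 libraries held 10.2, 11.7, and 5.72 CPM, and TVB-3166 libraries 4.92, 4.75, and 3.97 CPM. All libraries of both lipogenesis inhibitors therefore lay above all untreated libraries. Bleomycin libraries held 3.70, 12.6, and 12.0 CPM, and doxorubicin libraries 13.1, 11.3, and 9.95 CPM. Alisertib libraries held 2.42, 3.08, and 1.58 CPM, and palbociclib libraries 2.52, 2.89, and 2.15 CPM. Replicate 1 of bleomycin was well below its group, and alisertib overlapped day 0 but not day 7.

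Against day 0, ACTA1 rose in ND-646 cells by 3.14 on the log2 scale (SE 0.53, adjusted p = 0.00217) and in TVB-3166 cells by 2.14 (SE 0.42, adjusted p = 0.00133). The rises with bleomycin and doxorubicin were 3.19 (SE 0.59, adjusted p = 0.00187) and 3.49 (SE 0.41, adjusted p = 0.000144). Palbociclib gave a rise of 1.28 (SE 0.45, adjusted p = 0.034), a call that was lost without any 1 of the libraries other than replicate 2 of day 0, with adjusted p up to 0.0946 over the alternatives. The alisertib value, 1.18 (SE 0.48), missed the threshold with an adjusted p of 0.0759, which ranged from 0.00241 to 0.236 over the alternatives. Against day 7, where the untreated libraries lay close together, ACTA1 was called higher with all 6 drugs, from 1.72 (SE 0.29, adjusted p = 0.00357) with alisertib to 4.01 (SE 0.20, adjusted p = 8.6e-08) with doxorubicin.

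ACTA2, the smooth muscle alpha-actin and a usual marker of activated fibroblasts, lies on chromosome 10 (chr10:90694831-90751096, minus strand, GeneID 59). Its day-0 libraries held 0.254, 1.09, and 1.07 CPM and its day-7 untreated libraries 0.573, 0.521, and 1.16 CPM. ND-646 libraries held 3.30, 4.59, and 3.83 CPM, and TVB-3166 libraries 1.51, 2.25, and 1.34 CPM. The ND-646 libraries all lay above those of TVB-3166, and both groups lay above all untreated libraries. Bleomycin libraries held 1.95, 7.38, and 9.30 CPM, and doxorubicin libraries 11.6, 9.07, and 9.34 CPM. Alisertib libraries held 2.42, 2.62, and 0.940 CPM, and palbociclib libraries 3.88, 3.21, and 2.66 CPM. Only in alisertib did a library fall within the untreated range.

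Against day 0, ACTA2 rose by 2.29 on the log2 scale in ND-646 cells (SE 0.47, adjusted p = 0.00566), 2.98 with bleomycin (SE 0.62, adjusted p = 0.00346), 3.68 with doxorubicin (SE 0.38, adjusted p = 7.08e-05), and 2.04 with palbociclib (SE 0.42, adjusted p = 0.00219). It did not pass in TVB-3166 cells (1.11, SE 0.45, adjusted p = 0.0537, 0.00123 to 0.197 over the alternatives) or in alisertib cells (1.32, SE 0.51, adjusted p = 0.0647, 0.00231 to 0.209). Against day 7 it was called in all 6, with TVB-3166 at 1.19 (SE 0.35, adjusted p = 0.0143) and alisertib at 1.42 (SE 0.42, adjusted p = 0.0381). The TVB-3166 call was lost without replicate 1 of untreated day 7 or replicate 2 of TVB-3166, and the alisertib call without any 1 of 4 libraries, replicates 1 and 2 of each group.

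The order of the group means was doxorubicin, bleomycin, ND-646, TVB-3166, palbociclib, alisertib, day 0, and day 7 for ACTA1. ACTA2 had palbociclib and alisertib ahead of TVB-3166 and the same order otherwise. For ACTA1, neighbours whose library ranges did not overlap were ND-646 with TVB-3166 and TVB-3166 with palbociclib. For ACTA2 they were palbociclib with alisertib and TVB-3166 with day 0. Together, both alpha-actins made up 0.0419% ± 0.0231 of the summed CPM per kilobase of the 4 actins at day 0, 0.408% ± 0.123 in ND-646 cells, and 0.718% ± 0.104 in doxorubicin cells (SD, n = 3). The highest share in any library was 0.827%, in doxorubicin.

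ACTA2 shares 40080 bases with STAMBPL1 on the opposite strand, and since the counting is not stated to use strand, reads of the 2 genes cannot be told apart there. STAMBPL1 was 2.54 ± 0.631 CPM at day 0. Against day 0 it fell, relative to all genes with TMM, in the TVB-3166, bleomycin, doxorubicin, and palbociclib groups, by 0.75 to 1.32 on the log2 scale. It did not pass with ND-646 (-0.74, adjusted p = 0.097) or alisertib (-0.11, adjusted p = 0.761). How far reads of 1 of these genes were counted for the other was not tested. The coding parts of the 4 actins are near-identical and have many processed pseudogenes, and how the counting shared such reads is not stated, so the split of reads between the 4 genes is uncertain. Of the smooth muscle and fibroblast markers most were missing. TAGLN, the smooth muscle transgelin, was not among these markers and is given with the pathway lists, where it rose in ND-646, TVB-3166, bleomycin, and doxorubicin cells. MYH11, CNN1, DES, MYOCD, and LMOD1 were not in the count table, so at least 1 library had no read of each. The summed smooth muscle level, that of SMTN alone, was 40.4 to 55.0 CPM at day 0 and 15.9 to 38.7 CPM in ND-646, TVB-3166, bleomycin, doxorubicin, and palbociclib cells. It was 22.8 to 45.1 CPM in untreated day-7 cells and 33.3 to 49.5 CPM with alisertib. Against day 7, SMTN was called lower with ND-646 alone, relative to all genes with TMM. Of 7 fibroblast markers only COL1A1 was present, at 11.8 to 13.1 CPM at day 0 and 6.46 to 11.4 CPM in the same 5 treated groups. It was 10.5 to 15.2 CPM in untreated day-7 cells and 11.2 to 11.8 CPM with alisertib. Against day 7, COL1A1 was called lower with bleomycin, doxorubicin, and palbociclib, relative to all genes with TMM.

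**Figure D2:**
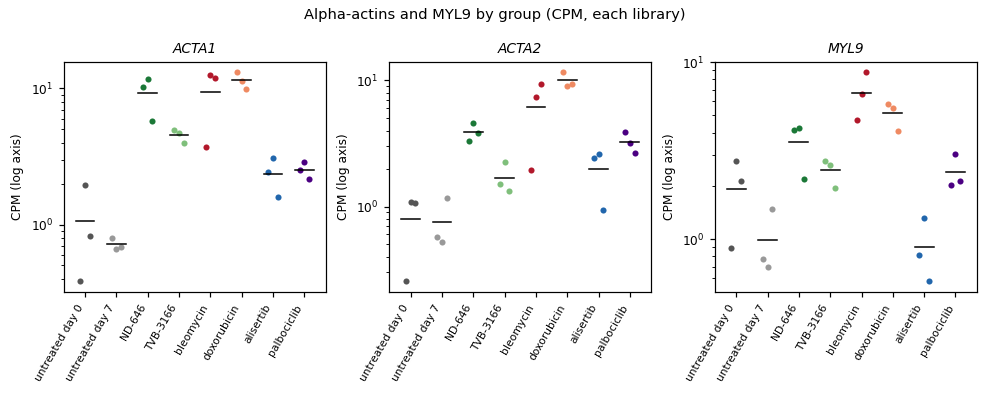
CPM (log axis) of ACTA1, ACTA2, and MYL9 in each of the 24 libraries; points are libraries and lines the group means. Doxorubicin has the highest mean of both alpha-actins (11.5 and 10.0 CPM), replicate 1 of bleomycin lies below the others of its group for all 3 genes, and MYL9 in alisertib (0.577 to 1.31 CPM) overlaps the untreated cells.

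MYL9, the myosin regulatory light chain of contractile cells (chr20:35169900-35179850, plus strand, GeneID 10398), followed the alpha-actins in the DNA damage groups but not with alisertib. Day-0 libraries held 0.890, 2.75, and 2.13 CPM and untreated day-7 libraries 0.772, 0.695, and 1.48 CPM. Bleomycin libraries held 4.71, 6.61, and 8.75 CPM and doxorubicin libraries 5.80, 5.53, and 4.08 CPM, all above the untreated ones. ND-646 libraries held 4.16, 4.23, and 2.18 CPM, TVB-3166 libraries 2.78, 2.63, and 1.95 CPM, and palbociclib libraries 2.03, 3.02, and 2.12 CPM. These 3 groups overlapped day 0 and lay above day 7. Alisertib libraries held 0.817, 1.31, and 0.577 CPM and overlapped both untreated groups.

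Against day 0 MYL9 rose with bleomycin by 1.81 (SE 0.39, adjusted p = 0.00402) and with doxorubicin by 1.44 (SE 0.34, adjusted p = 0.00654), whereas alisertib stood at -1.09 (SE 0.43, adjusted p = 0.0701, 0.00401 to 0.324 over the alternatives). Without replicate 1 of day 0, MYL9 was called lower with alisertib, at -1.43 (SE 0.33, adjusted p = 0.00401). Against day 7 it rose in 5 groups, by 1.83 (SE 0.39, adjusted p = 0.00823) with ND-646, 1.33 (SE 0.31, adjusted p = 0.00405) with TVB-3166, 2.79 (SE 0.34, adjusted p = 0.000369) with bleomycin, 2.42 (SE 0.28, adjusted p = 4.34e-05) with doxorubicin, and 1.29 (SE 0.32, adjusted p = 0.00697) with palbociclib. Between the untreated groups the value was -0.95 (SE 0.43, adjusted p = 0.213), so the calls of ND-646, TVB-3166, and palbociclib depended on which untreated group was the reference.

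ACTB, the main cytoplasmic actin and a common loading control (chr7:5566040-5603533, minus strand, GeneID 60), was the most abundant member. Its reads were 0.452% of all counts at day 0 and 0.362% or less in the treated groups, the lowest being ND-646. Day-0 libraries held 3997, 5266, and 4652 CPM and untreated day-7 libraries 4469, 3847, and 4622 CPM. TVB-3166 libraries held 3145, 3252, and 3104 CPM, and palbociclib libraries 3058, 2883, and 2703 CPM. All libraries of both groups lay below all untreated ones. Doxorubicin libraries held 3231, 3563, and 2960 CPM, alisertib libraries 3197, 2911, and 2902 CPM, and bleomycin libraries 3556, 3878, and 3848 CPM, so only bleomycin overlapped the untreated range among these. ND-646 libraries held 4077, 3114, and 3044 CPM, the first of them within the untreated range.

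Against day 0 ACTB fell, relative to all genes, by 0.55 on the log2 scale in TVB-3166 cells (SE 0.13, adjusted p = 0.00461), 0.50 with doxorubicin (SE 0.15, adjusted p = 0.0173), 0.63 with alisertib (SE 0.12, adjusted p = 0.00343), and 0.69 with palbociclib (SE 0.13, adjusted p = 0.00149), and these values became 0.20, 0.15, -0.01, and 0.08 when scaled to the reference genes. The ND-646 and bleomycin groups did not pass (adjusted p = 0.132 and 0.134). Without replicate 1 of ND-646, ACTB in that group was -0.60 against day 0 (SE 0.15, adjusted p = 0.00901) and -0.50 against day 7 (SE 0.11, adjusted p = 0.00274), and without replicate 1 of day 0 the bleomycin value was -0.40 (SE 0.14, adjusted p = 0.0383). The same 4 drugs gave the call against day 7, from -0.38 with doxorubicin to -0.57 with palbociclib, and from -0.02 to -0.23 when scaled to the reference genes. The doxorubicin call was lost without replicate 1 or 3 of doxorubicin or replicate 2 of day 0 in the first comparison, and without replicate 1 of doxorubicin or replicate 3 of untreated cells in the second.

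The reference genes that the study used for RT-qPCR moved too, relative to all genes with TMM, and scaling to these same genes would set their mean change to about 0. GAPDH, a glycolytic enzyme, was 6076 ± 676 CPM at day 0 and 2167 to 2690 CPM as means of the treated groups, and fell by 1.16 to 1.48 in all 6 (adjusted p at most 0.00426). PPIA, a prolyl isomerase, fell by 0.50 to 0.86 in the 5 groups other than ND-646, where it was -0.63 with an adjusted p of 0.0946. GUSB, a lysosomal enzyme, fell with palbociclib by 0.47 (SE 0.08, adjusted p = 0.000916) and did not pass in the other 5. GAPDH also fell between the untreated groups, by 0.70 (SE 0.13, adjusted p = 0.0474). That call was lost with no filter on low counts, and without replicate 2 or 3 of untreated day 7 or replicate 2 of day 0. In each of those fits 0 genes were called. In each of the 4 groups where ACTB fell relative to all genes, GAPDH fell by more.

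**Figure D3:**
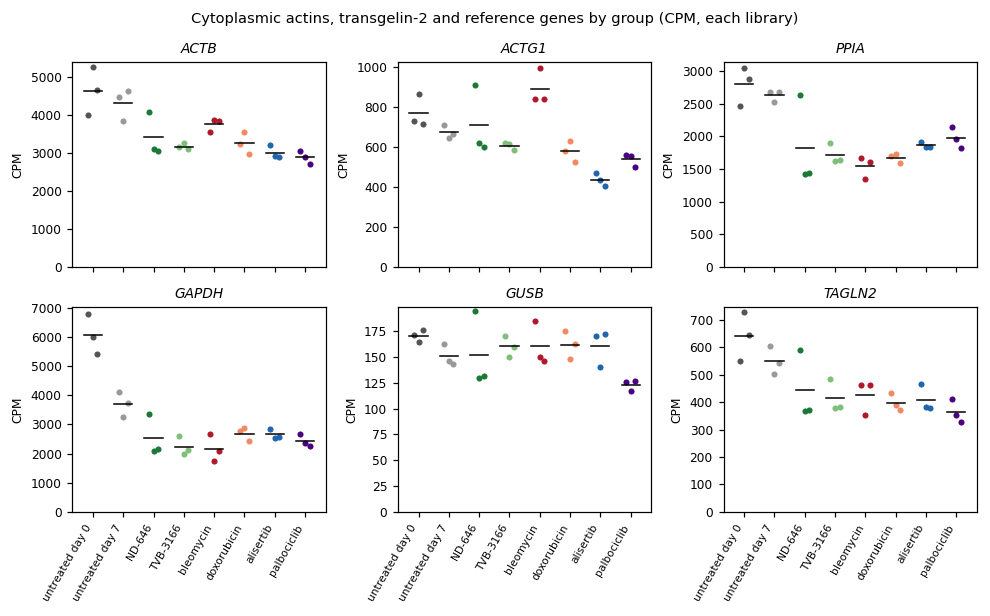
CPM of ACTB, ACTG1, TAGLN2, and the reference genes PPIA, GAPDH, and GUSB in each of the 24 libraries, with axes from 0; points are libraries and lines the group means. GAPDH has a mean of 6076 CPM at day 0 and 2167 CPM with bleomycin, ACTB 4638 and 3761 CPM, and replicate 1 of ND-646 is the highest of its group for all 6 genes.

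**Figure D4:**
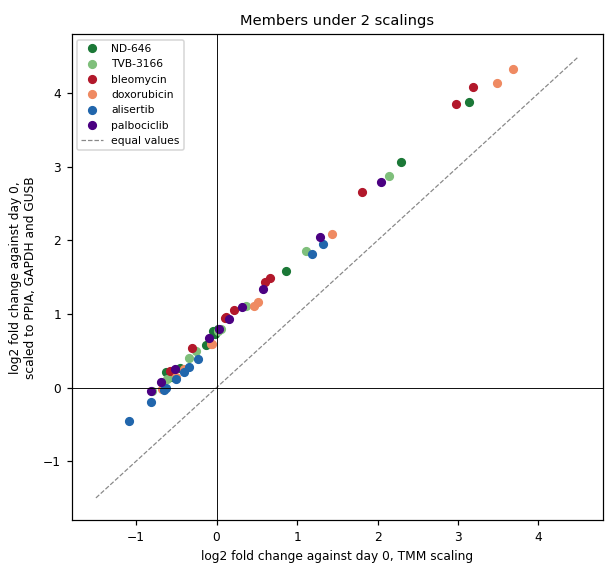
Log2 fold changes of the 10 members against day 0 in the 6 treated groups with TMM scaling (horizontal) and scaled to PPIA, GAPDH, and GUSB (vertical); the dashed line marks equal values. Every point lies above the line, by about the shift of the median of all genes (0.61 to 0.83), and the points left of 0 that move above 0 are the members whose direction depends on the scaling.

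ACTG1, the second cytoplasmic actin (chr17:79476439-79490873, minus strand, GeneID 71), fell with the same 4 drugs as ACTB relative to all genes but with bleomycin was higher than at day 7, and most of its falls, too, depend on the scaling. Day-0 libraries held 727, 866, and 716 CPM, untreated day-7 libraries 709, 642, and 665 CPM, and bleomycin libraries 840, 994, and 839 CPM. Alisertib libraries held 468, 435, and 402 CPM, below every other library of the series. Palbociclib libraries held 559, 557, and 499.5 CPM. Against day 0 it fell relative to all genes with TVB-3166 (-0.34, SE 0.11, adjusted p = 0.0214), doxorubicin (-0.40, SE 0.12, adjusted p = 0.0187), alisertib (-0.82, SE 0.11, adjusted p = 0.000535), and palbociclib (-0.52, SE 0.11, adjusted p = 0.00301), with 0.40, 0.25, -0.20, and 0.25 when scaled to the reference genes. The TVB-3166 and doxorubicin calls were each lost without any 1 of 3 libraries, namely replicate 2 of day 0, replicates 2 and 3 of TVB-3166, and replicates 1 and 3 of doxorubicin. The ND-646 value, -0.13 (SE 0.20, adjusted p = 0.639), was -0.34 without replicate 1 of ND-646 (SE 0.13, adjusted p = 0.0478). Against day 7 ACTG1 rose with bleomycin by 0.42 (SE 0.11, adjusted p = 0.0108), a call lost without replicate 3 of untreated cells, and fell with alisertib by 0.61 (SE 0.08, adjusted p = 0.00112) and with palbociclib by 0.31 (SE 0.08, adjusted p = 0.0102), the latter becoming 0.12 when scaled to the reference genes. With alisertib the value became -0.33 under that scaling, and the call was kept.

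A ratio within a library does not depend on scaling. The CPM ratio of ACTB to ACTG1 was 6.03 ± 0.501 at day 0, 6.41 ± 0.487 in untreated day-7 cells, 4.24 ± 0.342 with bleomycin, and 6.92 ± 0.276 with alisertib (SD, n = 3). The bleomycin ratios, 3.90 to 4.59, lay below all untreated ratios, 5.50 to 6.95, and so did those of ND-646 (4.48 to 5.07), TVB-3166 (5.10 to 5.32), and palbociclib (5.18 to 5.47). Those of alisertib, 6.69 to 7.22, overlapped the untreated range, as did those of doxorubicin, 5.57 to 5.66.

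TAGLN2, transgelin-2, an actin-bundling protein of non-muscle cells (chr1:159887897-159895297, minus strand, GeneID 8407), was lower, relative to all genes, with 5 drugs, falls that come to about 0 when scaled to the reference genes. Day-0 libraries held 549, 726, and 645 CPM, untreated day-7 libraries 603, 503, and 542 CPM, and palbociclib libraries 410, 353, and 329 CPM. Relative to all genes it fell against day 0 in 5 groups, by 0.62 with TVB-3166 (SE 0.14, adjusted p = 0.00245), 0.58 with bleomycin (SE 0.15, adjusted p = 0.00996), 0.68 with doxorubicin (SE 0.13, adjusted p = 0.00172), 0.65 with alisertib (SE 0.13, adjusted p = 0.00319), and 0.82 with palbociclib (SE 0.13, adjusted p = 0.000462). Scaled to the reference genes these were 0.11, 0.23, -0.02, -0.03, and -0.05. The bleomycin call was lost without replicate 2 of day 0. ND-646 libraries held 588, 369, and 370 CPM, and the group stood at -0.55 (SE 0.22, adjusted p = 0.077); without replicate 1 it was -0.80 with an adjusted p of 0.001, in a range of 0.001 to 0.442 over the alternatives. Against day 7 ND-646 stood at -0.33 (SE 0.20, adjusted p = 0.245) and without replicate 1 at -0.59 (SE 0.10, adjusted p = 0.000557). The same 5 drugs gave the call against day 7, by 0.36 to 0.59, with 0.01 for TVB-3166 and 0.13 for bleomycin when scaled to the reference genes. Of these, the TVB-3166 call was lost without replicate 3 of TVB-3166, the bleomycin call (-0.36, SE 0.13, adjusted p = 0.044) without replicate 1 or 3 of untreated cells or replicate 2 or 3 of bleomycin, and the alisertib call (-0.41, SE 0.10, adjusted p = 0.0173) without replicate 3 of untreated cells or replicate 2 or 3 of alisertib.

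FLNA, filamin A, the crosslinker that joins filaments into networks (chrX:153576892-153603002, minus strand, GeneID 2316), was higher with some drugs and lower with others. Day-0 libraries held 449, 456, and 381 CPM and untreated day-7 libraries 394, 418, and 393 CPM. TVB-3166 libraries held 212, 239, and 282 CPM and ND-646 libraries 182, 326, and 328 CPM, all below the untreated libraries. Bleomycin libraries held 648, 615, and 760 CPM and doxorubicin libraries 611, 531, and 678 CPM, all above them. Alisertib libraries held 360.1, 300.3, and 357 CPM and palbociclib libraries 445, 460.2, and 534 CPM. The lowest and the highest group mean were those of TVB-3166 and bleomycin, 245 and 674 CPM, a span of 2.76-fold.

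Against day 0 FLNA rose with bleomycin by 0.66 (SE 0.13, adjusted p = 0.00231) and with doxorubicin by 0.51 (SE 0.12, adjusted p = 0.00648), calls kept without any 1 library. It fell relative to all genes with TVB-3166 by 0.80 (SE 0.12, adjusted p = 0.000248), which became -0.05 when scaled to the reference genes, and with alisertib by 0.34 (SE 0.11, adjusted p = 0.0285), which became 0.28. The alisertib call was lost without replicate 2 or 3 of alisertib or replicate 2 of day 0. In ND-646 cells the value was -0.63 (SE 0.24, adjusted p = 0.066), and without replicate 1 it was -0.39 with an adjusted p of 0.0184, in a range of 0.00327 to 0.649 over the alternatives. Against day 7 the rises were 0.76 (SE 0.10, adjusted p = 0.000525) with bleomycin, 0.62 (SE 0.10, adjusted p = 0.00041) with doxorubicin, and 0.26 (SE 0.09, adjusted p = 0.0322) with palbociclib, the last lost without replicate 1 or 3 of untreated cells or replicate 3 of palbociclib, and the fall with TVB-3166 was -0.71 (SE 0.10, adjusted p = 0.000179), and -0.29 when scaled to the reference genes. The ND-646 value against day 7 was -0.53 (SE 0.23, adjusted p = 0.104), and without its replicate 1 it was -0.31 with an adjusted p of 0.00834.

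VCL, vinculin, which links actin to adhesion sites (chr10:75754951-75881121, plus strand, GeneID 7414), changed in 1 treated group. Day-0 libraries held 400.3, 451, and 457 CPM, untreated day-7 libraries 468, 506, and 469.8 CPM, and alisertib libraries 331, 304, and 349 CPM. Alisertib was below both untreated groups, by 0.41 against day 0 (SE 0.09, adjusted p = 0.00738) and 0.54 against day 7 (SE 0.08, adjusted p = 0.00161). Scaled to the reference genes these values became 0.21 and -0.27, and the call against day 7 was lost. The libraries of the other treated groups ranged from 299 to 531 CPM, with replicate 1 of ND-646 as the lowest, and none of those groups passed against either reference. VCL shares 1109 bases with AP3M1 on the opposite strand.

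**Figure D5:**
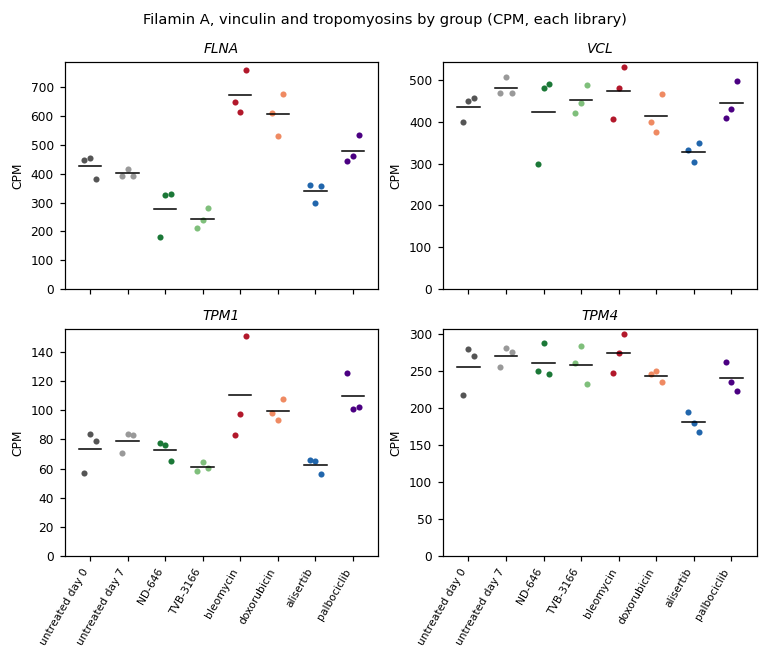
CPM of FLNA, VCL, TPM1, and TPM4 in each of the 24 libraries, with axes from 0; points are libraries and lines the group means. FLNA runs from a mean of 245 CPM with TVB-3166 to 674 CPM with bleomycin, TPM1 is highest with bleomycin, palbociclib, and doxorubicin (111, 110, and 99.8 CPM), and alisertib has the lowest means of VCL and TPM4 (328 and 181 CPM), falls that against day 0 change sign when scaled to the reference genes.

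TPM1, a tropomyosin found in stress fibres and in muscle (chr15:63334819-63364114, plus strand, GeneID 7168), rose with bleomycin, doxorubicin, and palbociclib. Day-0 libraries held 57.1, 84.0, and 78.7 CPM and untreated day-7 libraries 70.7, 83.6, and 82.9 CPM. Bleomycin libraries held 83.3, 97.3, and 151 CPM, doxorubicin libraries 98.3, 93.1, and 108 CPM, and palbociclib libraries 126, 101, and 102 CPM. The last 2 groups lay above all untreated libraries, whereas bleomycin overlapped them. ND-646 libraries held 77.5, 76.1, and 65.2 CPM, TVB-3166 libraries 58.5, 64.8, and 60.7 CPM, and alisertib libraries 66.0, 65.1, and 56.5 CPM.

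Against day 0 the rises of TPM1 were 0.60 (SE 0.22, adjusted p = 0.0467) with bleomycin, 0.46 (SE 0.14, adjusted p = 0.021) with doxorubicin, and 0.58 (SE 0.15, adjusted p = 0.00684) with palbociclib. The bleomycin call was lost without any 1 of 5 libraries, all but replicate 1 of bleomycin, and ranged to an adjusted p of 0.19, and the doxorubicin call was lost without replicate 1 or 3 of doxorubicin. TPM1 in TVB-3166 and alisertib cells did not pass (-0.25 and -0.23, adjusted p = 0.13 and 0.216), and without replicate 1 of day 0 it was called lower in both (-0.41 and -0.37, adjusted p = 0.0024 and 0.00868), relative to all genes. Against day 7 TPM1 rose with doxorubicin by 0.36 (SE 0.09, adjusted p = 0.00714) and with palbociclib by 0.48 (SE 0.10, adjusted p = 0.00301). It fell relative to all genes with TVB-3166 by 0.36 (SE 0.09, adjusted p = 0.00514), which became 0.05 when scaled to the reference genes, and with alisertib by 0.32 (SE 0.09, adjusted p = 0.0316), which became -0.05. The alisertib call was lost without replicate 2 or 3 of either group.

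TPM4, a tropomyosin of non-muscle cells (chr19:16177831-16213812, plus strand, GeneID 7171), was, like VCL, called with alisertib alone against untreated cells. Day-0 libraries held 217, 279, and 270.3 CPM and untreated day-7 libraries 255, 281, and 275 CPM. Alisertib libraries held 194, 180.0, and 167 CPM, below every other library of the series, and the fall was 0.50 against day 0 (SE 0.11, adjusted p = 0.00577) and 0.57 against day 7 (SE 0.08, adjusted p = 0.0013). Scaled to the reference genes these values became 0.12 and -0.30, and the call against day 7 was kept. The other treated libraries ranged from 222.5 to 299.6 CPM, and none of those groups passed against either untreated group.

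The direct comparison of the lipogenesis inhibitors asked whether blocking FASN and blocking ACC, both given at 250 nmol/L, left different levels. No member passed between TVB-3166 and ND-646 (0 of 10 higher and 0 lower, against 0.52% and 0.198% of all genes), 2 had a raw p under 0.05, and DESeq2 called 2. ACTA1 stood at -1.01 (SE 0.28, 95% interval -1.65 to -0.37, adjusted p = 0.15) and ACTA2 at -1.19 (SE 0.27, 95% interval -1.82 to -0.57, adjusted p = 0.0948), and for each the 3 TVB-3166 libraries lay below the 3 ND-646 libraries. Replicate numbers paired the libraries in this comparison (deviations correlated at 0.213 to 0.380), and with the replicate number as a block 1 member was called, ACTA2 at -1.21 with an adjusted p of 0.0499, in a range of 0.00257 to 0.374 over the alternatives. Without replicate 1 of ND-646, 2 members were called, ACTA2 at -1.30 with an adjusted p of 0.0128 and FLNA at -0.41 with an adjusted p of 0.0422. Of all genes, 1518 were called without that library, in place of 98. For FLNA the interval of the difference was -0.73 to 0.37 and for ACTB -0.48 to 0.29, so neither a difference nor its absence was shown.

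The mean of the lipogenesis inhibitors was then set against the mean of the other 4 TIS drugs in a fit of the 18 treated libraries, in which 1 member was higher and 3 were lower, against 26.1% and 24% of all genes. FLNA was lower by 0.96 on the log2 scale (SE 0.11, adjusted p = 2.91e-06) and TPM1 by 0.47 (SE 0.10, adjusted p = 0.000908), and both calls were kept without any 1 of the 18 libraries. ACTA2 was lower by 0.79 (SE 0.27, adjusted p = 0.0221), a call lost without replicate 1 or 3 of TVB-3166 and with scaling to the reference genes. TPM4 was higher by 0.17 (SE 0.06, adjusted p = 0.0329), and this call was lost without any 1 of 8 libraries: replicate 1 of bleomycin, replicate 3 of doxorubicin, replicate 3 of alisertib, replicates 2 and 3 of palbociclib, replicate 2 of ND-646, and replicates 1 and 2 of TVB-3166. The TPM4 call was also lost with library totals alone, with scaling to the reference genes, and with a minimum of 10 counts in each library. Without replicate 1 of TVB-3166, 2 members were called, and without replicate 1 of ND-646 VCL was called higher (0.19, SE 0.07, adjusted p = 0.0318) where it had been 0.09. The libraries of the 2 sets overlapped for all 4 genes. ACTA1 and MYL9 did not pass (adjusted p = 0.167 and 0.97).

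The wider pathway was read from 4 lists of genes that hold none of the members. Their genes were not refitted under the other scalings, so directions here are relative to all genes with TMM, and the shares of all genes called are those given above. Of 15 tested genes of myosin and tropomyosin filaments, 4 were higher and 1 lower than day 0 in ND-646 cells, 4 and 3 with TVB-3166, 6 and 3 with bleomycin, 6 and 3 with doxorubicin, 2 and 2 with alisertib, and 3 and 4 with palbociclib. Their median log2 fold change lay between -0.04 and 0.26, against -0.01 to 0.02 for all genes tested. Against day 7 the counts were 3 and 0, 5 and 2, 6 and 3, 7 and 3, 2 and 3, and 4 and 3 in the same order of drugs. The tropomyosin TPM3 fell against day 0 in all 6 groups by 0.79 to 1.08 and against day 7 in the 5 other than ND-646 by 0.39 to 0.66, whereas the myosin light chain MYL12A rose in 5 against either, by 0.29 to 1.10. Against day 0, TAGLN rose with ND-646 (1.10, adjusted p = 0.0139), TVB-3166 (1.36, adjusted p = 0.000596), bleomycin (1.27, adjusted p = 0.00724), and doxorubicin (1.56, adjusted p = 6e-04). It thus moved opposite to TAGLN2 in the last 3 of these groups, and the same 4 groups were called against day 7. MYLK, the kinase that activates myosin light chains, rose in 4 groups against day 0, most with bleomycin (1.78, SE 0.27, adjusted p = 0.00059), but against day 7 in the bleomycin group alone (1.16, SE 0.22, adjusted p = 0.00257). The ND-646, doxorubicin, and palbociclib calls of MYLK therefore depended on the untreated group, and untreated day 7 itself stood at 0.64 over day 0 (adjusted p = 0.155).

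Of 20 crosslinker and adhesion genes, 2 were higher and 3 lower than day 0 with ND-646, 4 and 6 with TVB-3166, 5 and 0 with bleomycin, 3 and 1 with doxorubicin, 2 and 6 with alisertib, and 4 and 5 with palbociclib, with medians of -0.18 to 0.17. Against day 7 the counts were 3 and 3, 4 and 5, 9 and 1, 8 and 3, 1 and 6, and 7 and 3 in that order. FLNC, the muscle filamin, rose in all 6 groups, from 0.342 ± 0.0923 CPM at day 0 to 11.7 ± 2.80 with bleomycin, 8.10 ± 0.486 with doxorubicin, and 3.62 ± 0.585 with alisertib (SD, n = 3). Its log2 fold changes there were 5.08 (SE 0.31, adjusted p = 1.12e-05), 4.56 (SE 0.24, adjusted p = 3.08e-06), and 3.38 (SE 0.29, adjusted p = 9.25e-05), and in ND-646, TVB-3166, and palbociclib cells 2.15, 1.22, and 1.31. Against day 7 FLNC passed in 5 groups and not with TVB-3166 (1.13, SE 0.44, adjusted p = 0.052). Against day 0 with alisertib, FLNC thus rose where FLNA fell relative to all genes, by 0.34, a value that became 0.28 when scaled to the reference genes. Against day 7 FLNA was not called with alisertib (-0.23). LIMA1, which bundles actin, rose against day 0 in all 6 groups by 0.41 to 0.93 and against day 7 in 4, all but ND-646 and alisertib, by 0.33 to 0.66. LASP1, an adhesion protein, fell against day 0 with ND-646, TVB-3166, and alisertib by 0.99 to 1.09 and also between the untreated groups by 0.52. The call between the untreated groups was lost in the same fits as that of GAPDH, where 0 genes were called. Against day 7 LASP1 fell with the same 3 drugs by 0.46 to 0.55 and rose with bleomycin (0.29), doxorubicin (0.47), and palbociclib (0.67).

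Of 20 genes of actin assembly and turnover, 2 were higher and 2 lower than day 0 with ND-646, 2 and 12 with TVB-3166, 3 and 5 with bleomycin, 3 and 9 with doxorubicin, 1 and 13 with alisertib, and 3 and 7 with palbociclib. The medians, -0.41 to -0.14, all lay below those of all genes. Against day 7 the counts were 2 and 2, 3 and 8, 4 and 4, 3 and 8, 3 and 11, and 3 and 4 in that order. The monomer-binding PFN1 and the severing factor CFL1 fell against day 0 in every group but ND-646, by 0.78 to 0.98 and 0.70 to 0.83, and against day 7 in the same groups by 0.44 to 0.65 and 0.35 to 0.47. TMSB4X, thymosin beta-4, which holds actin monomers, rose against day 0 in every group but alisertib, from 1.14 with doxorubicin to 2.29 with ND-646, and GSN, gelsolin, rose in the same 5 by 0.30 to 0.73. Against day 7 both were higher with all 6 drugs, alisertib included (TMSB4X 1.05, adjusted p = 0.0185, and GSN 0.30, adjusted p = 0.0153).

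Of 7 tested SRF and YAP target genes outside the cytoskeleton, 3 rose against day 0 with ND-646, 2 with TVB-3166, 5 with bleomycin, 3 with doxorubicin, and 3 with palbociclib, whereas alisertib gave 0 higher and 4 lower, and doxorubicin and palbociclib 1 lower each. Against day 7 the counts were 3 and 0, 1 and 0, 4 and 0, 2 and 1, 0 and 4, and 2 and 0, from ND-646 to palbociclib in the same order. The matricellular CCN2 rose from 8.44 ± 1.10 CPM to 63.4 ± 17.2 with ND-646 (2.89, SE 0.22, adjusted p = 3.61e-05) and was 5.01 ± 1.03 with alisertib (-0.76, SE 0.18, adjusted p = 0.00897). Against day 7 it was 2.16 with ND-646 (SE 0.54, adjusted p = 0.0162) and -1.49 with alisertib (SE 0.47, adjusted p = 0.0465). Between the lipogenesis inhibitors it was lower with TVB-3166 (-1.38, SE 0.19, adjusted p = 0.0404). Of all genes, 0 were called in this comparison with reference gene scaling or without any 1 library other than replicate 1 of ND-646. The CCN2 call between the inhibitors was therefore lost in each of these fits.

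Across the 24 libraries, log2 CPM of ACTA1 and ACTA2 had a Pearson r of 0.90, ACTA1 and MYL9 of 0.82, ACTB and TAGLN2 of 0.87, and FLNA and TPM1 of 0.70, whereas ACTA1 and ACTB had -0.36. These are descriptions over libraries that share groups and scaling, with no test. Among the 9194 genes outside the list with a mean of at least 10 CPM, the most alike were OTUD1 for ACTA1 (r = 0.929), COL4A2 for ACTA2 (0.915), EIF4A3 for ACTB (0.926), VDAC2 for ACTG1 (0.877), CFL1 for TAGLN2 (0.947), and ACTN1 for FLNA (0.926). Those of TPM1, TPM4, VCL, and MYL9 were FHL2 (0.873), RAP1B (0.829), CARMIL1 (0.726), and H1-2 (0.884).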

How the data were processed

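mRNA-seq libraries of SKBR3 cells were grouped by their labels, which name an mRNA kit where the methods name a total RNA kit. Alignment to GRCh37 used HISAT2 and transcript assembly StringTie, and what the authors deposited are raw counts of reads for each gene, as whole numbers. How reads were counted, strand use included, is not given in the sources used here. The members and the gene lists were chosen with earlier results of these data known. The result of 1 further gene list is not reported here.

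Each pair of groups was fitted alone in R 4.3.3 by edgeR 4.0.16 (filterByExpr, TMM, glmQLFit and glmQLFTest, 2-sided). The lipogenesis contrast used the 18 treated libraries. Intervals are at 95%. Levels are CPM with TMM scaling, and a prior count of 2 was added for log2 CPM. With 3 libraries against 3 an exact permutation test cannot go below 0.1. All 10 members, the genes of each list called in the most comparisons with day 0 (4 at most), and the gene most like each member were named.

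Replicate numbers are in the labels, which do not say that they mark a shared day. Same-numbered libraries deviated together, with every correlation over 0.1, in TVB-3166 against ND-646 (0.213 to 0.380), bleomycin against day 7 (0.107 to 0.142), and alisertib against day 7 (0.105 to 0.218), where the number was taken to pair libraries. Single correlations were as high in comparisons not taken as paired, such as bleomycin against day 0 (0.029 to 0.31), so the pairing is uncertain.

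Alternatives were DESeq2 1.42.0, RLE size factors, library totals alone, scaling to PPIA, GAPDH, and GUSB, no filter on low counts, a minimum of 10 in each library, a joint fit of all 24 libraries, a fold-change of 2 with a raw p under 0.05, a replicate block, and omission of each library in turn. The scripts were tested on simulated data, where false calls exceeded the nominal share more often with DESeq2 than with edgeR, so calls made by DESeq2 alone and edgeR calls near the threshold are less certain. Positions are from GENCODE v44 lifted to GRCh37 and promoters from RefSeq.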

Additional observations from a re-analysis of the deposited data

How the results depend on the processing

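Single-gene alternatives cover members that passed or changed by 0.5 or more on the log2 scale in either direction, a limit set after the data were seen. RLE size factors and a minimum of 10 counts moved no count of members or genes by over 1.5 times. Causes were not tested.

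Members called moved as follows. With DESeq2 there were 5 for ND-646 against day 0 and 2 for TVB-3166 against ND-646. With library totals there were 4 and 5 for ND-646 against day 0 and day 7. With reference gene scaling there were 6 for ND-646 against day 0, 3 between untreated groups, 4 for alisertib against day 7, and 2 (TPM1 and FLNA) for the lipogenesis contrast. In 1 fit of 24 libraries there were 6 and 5 for ND-646 against day 0 and day 7, 4 for TVB-3166 against day 7, and 5 for alisertib against day 7. With a fold of 2 and a raw p under 0.05 there were 2, 3, 3, 3, and 2 for TVB-3166, bleomycin, doxorubicin, alisertib, and palbociclib against day 0, 3, 3, 3, 2, and 3 against day 7, 2 for TVB-3166 against ND-646, and 0 for the lipogenesis contrast.

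All genes called moved as follows. With DESeq2 there were 1120 between untreated groups and 762 for TVB-3166 against ND-646, with totals 32 and 156, and with no filter 0 and 32. With reference gene scaling there were 10189 for doxorubicin and 10381 for alisertib against day 0, 4619 between untreated groups, 5136 for alisertib against day 7, and 0 for TVB-3166 against ND-646. In 1 fit of 24 libraries there were 7878 and 7059 for ND-646 against day 0 and day 7, 441 between untreated groups, 1141 for alisertib against day 7, and 1268 for TVB-3166 against ND-646. With a fold of 2 and a raw p under 0.05 there were 2821, 2413, 2585, 1783, 1088, and 2292 against day 0 for ND-646, TVB-3166, bleomycin, doxorubicin, alisertib, and palbociclib, 2379, 1839, 1952, 1214, 451, and 1547 against day 7, 271 between untreated groups, 429 for TVB-3166 against ND-646, and 1003 for the lipogenesis contrast.

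Reference gene scaling reversed 17 values. Against day 0 these were TAGLN2 0.15 and FLNA 0.21 with ND-646, ACTB 0.20, ACTG1 0.40, and TAGLN2 0.11 with TVB-3166, TAGLN2 0.23 with bleomycin, ACTB 0.15 and ACTG1 0.25 with doxorubicin, TPM4 0.12, VCL 0.21, and FLNA 0.28 with alisertib, and ACTB 0.08 and ACTG1 0.25 with palbociclib. Against day 7 they were TAGLN2 0.01 and TPM1 0.05 with TVB-3166, TAGLN2 0.13 with bleomycin, and ACTG1 0.12 with palbociclib.

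With the replicate number as a block, TVB-3166 against ND-646 had 1 member and 310 genes called, in place of 0 and 98, and alisertib against day 7 had 4141 genes in place of 2627. Where the number was not taken to pair libraries, the block gave 1263 genes between untreated groups, and adjusted p became 0.0129 for ACTA2 with TVB-3166 and 0.00791, 0.0322, and 0.0188 for ACTA1, ACTA2, and MYL9 with alisertib, all against day 0. It changed no other call of a member among the values covered.

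Leaving out 1 library in turn, members called ranged from 2 to 6 for ND-646, 5 to 8 for doxorubicin against day 0, 3 to 6 for ND-646 and 5 to 7 for alisertib against day 7 (5 without replicate 2 of alisertib), 0 to 2 for TVB-3166 against ND-646, and 2 to 5 for the lipogenesis contrast. The 5 for doxorubicin came without its replicate 1 or 3. All genes called ranged from 3128 to 5205 for alisertib against day 0 (lowest without replicate 3 of alisertib), 0 to 94 between untreated groups, 2714 to 7618 for ND-646 (lowest without replicate 3 of untreated cells, highest without replicate 1 of ND-646) and 1062 to 2800 for alisertib against day 7 (lowest without replicate 3 of alisertib), and 0 to 1518 for TVB-3166 against ND-646 (highest without replicate 1 of ND-646). ACTA1 between untreated groups, -0.52, ranged from -0.93 to 0.27, the latter without replicate 2 of day 0.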
